A study of Brachypodium distachyon with 6 samples.

Results

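The NRT2 nitrate transporter block of Brachypodium distachyon was described in whole roots of Bd21, an inbred line of this model grass and the source of its reference genome. The block was defined by identifier, as every row of the count table with the chromosome digit 3 and a locus number from that of BRADI_3g01250v3 to that of BRADI_3g01290v3. The range held 4 of the 29627 rows: BRADI_3g01250v3, BRADI_3g01270v3, BRADI_3g01277v3 and BRADI_3g01290v3. BRADI_3g01270v3 is known as BdNRT2A. The table carries no gene names, so the assignment of the rows to the NRT2 family came with the choice of the block and was not checked here. The block was chosen because its rows differed between ammonium and nitrate, so the values of that contrast are given as a description and support nothing.

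There were 3 libraries from roots on ammonium and 3 from roots on nitrate, each from 12 pooled Bd21 seedlings. Plants entered the hydroponic tanks (4.5 L) when 7 days old and stayed for 19 days with 2.5 mM nitrogen in either form. Ammonium was supplied as the sulfate salt and nitrate as the calcium salt (1.25 mM each), so sulfate and calcium change together with the form of nitrogen. No library came from roots without nitrogen, so repression by ammonium and loss of induction by nitrate cannot be told apart. In whole-root RNA, fewer cells that hold a transcript and less of it per cell cannot be told apart either.

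NRT2 proteins are high-affinity transporters that bring nitrate into root cells together with protons when the outside concentration is low. In Arabidopsis, most of them need a small partner protein of the NRT3 (NAR2) family to work at the plasma membrane. In Arabidopsis and barley, NRT2 transcripts of roots are known to be induced by nitrate and held down by ammonium and glutamine. Neighbouring NRT2 genes are also known in Arabidopsis.

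Library totals ran from 22470936 to 29547877 counts. Ammonium replicate 3 stood apart from the other ammonium libraries, at 49.1 on the first principal component against 72.8 and 68.1. It was shifted towards the nitrate libraries (-64.7 to -60.7) but remained far from them. The second component set both libraries numbered 3 apart, ammonium replicate 3 at -29.7 and nitrate replicate 3 at -24.3, against 10.9 to 17.4 for the other libraries. Log2 fold changes of the block are therefore also given without each of these libraries. Shares, ratios and deviations are described library by library.

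All 4 rows of the block were far lower in ammonium roots than in nitrate roots, and the libraries of the groups did not overlap for any of them. Over the whole table, the ammonium libraries were all below the nitrate libraries for 27.8% of the 23694 features that passed the filter on low counts. The 4 rows were also all past the threshold used for other features, as were, in the same direction, 22.2% of all tested features (quasi-likelihood test of edgeR at an adjusted p under 0.05, Benjamini-Hochberg method). Because the block was chosen on this contrast, nothing is read from these counts. All 4 rows passed the filter, which asks for about 10 counts in a library of median size in at least 3 libraries. BRADI_3g01250v3 and BRADI_3g01270v3 met that minimum in all 6 libraries. BRADI_3g01290v3 met it in 2 of the 3 ammonium libraries and BRADI_3g01277v3 in 1 of them, so the nitrate libraries carried these rows through the filter.

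BRADI_3g01270v3 (BdNRT2A) stood at 126, 80 and 92 counts in ammonium replicates 1 to 3, against 10364, 7257 and 6814 counts in nitrate replicates 1 to 3. CPM scales counts to a library size adjusted by the TMM method. As CPM, the counts were 4.25, 2.87 and 3.32 in ammonium roots and 362, 280 and 300 in nitrate roots. The means were 3.48 ± 0.702 and 314 ± 43.1 CPM (SD, n = 3 each). The transcript was thus still counted in every ammonium library, at 1.11% of its mean level in nitrate roots. The log2 fold change, ammonium over nitrate, was -6.49 (SE 0.18).

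BRADI_3g01250v3 gave 94, 88 and 140 counts in the ammonium libraries, against 7081, 4753 and 5137 counts in the nitrate libraries. On the CPM scale it stood at 3.17, 3.16 and 5.06 in ammonium roots and at 247, 183 and 226 in nitrate roots (means 3.79 ± 1.09 and 219 ± 32.7 CPM, SD, n = 3 each). Ammonium replicate 3 was the highest ammonium library for this row, and still far below the lowest nitrate library. Its log2 fold change was -5.85 (SE 0.21), and ammonium roots kept 1.73% of the nitrate level.

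For BRADI_3g01290v3, the ammonium libraries held 20, 27 and 9 counts and the nitrate libraries 1227, 799 and 813 counts. Its level was 0.674, 0.969 and 0.325 CPM in ammonium roots and 42.9, 30.8 and 35.8 CPM in nitrate roots (means 0.656 ± 0.322 and 36.5 ± 6.08 CPM, SD, n = 3 each). Here ammonium replicate 3 was the lowest library. The log2 fold change was -5.79 (SE 0.26), which left 1.80% of the nitrate level.

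BRADI_3g01277v3 had the fewest counts of the block under ammonium, 11, 10 and 2, against 904, 559 and 539 counts under nitrate. Its CPM values were 0.371, 0.359 and 0.0723 in ammonium roots and 31.6, 21.5 and 23.7 in nitrate roots (means 0.267 ± 0.169 and 25.6 ± 5.29 CPM, SD, n = 3 each). Both of the rows with few counts were thus lowest in ammonium replicate 3. With 23 ammonium counts in all, the nitrate over ammonium ratio of the summed counts, 95.9, had an exact 95% interval of 63.8 to 152 that covers counting error only.

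**Figure D1:**
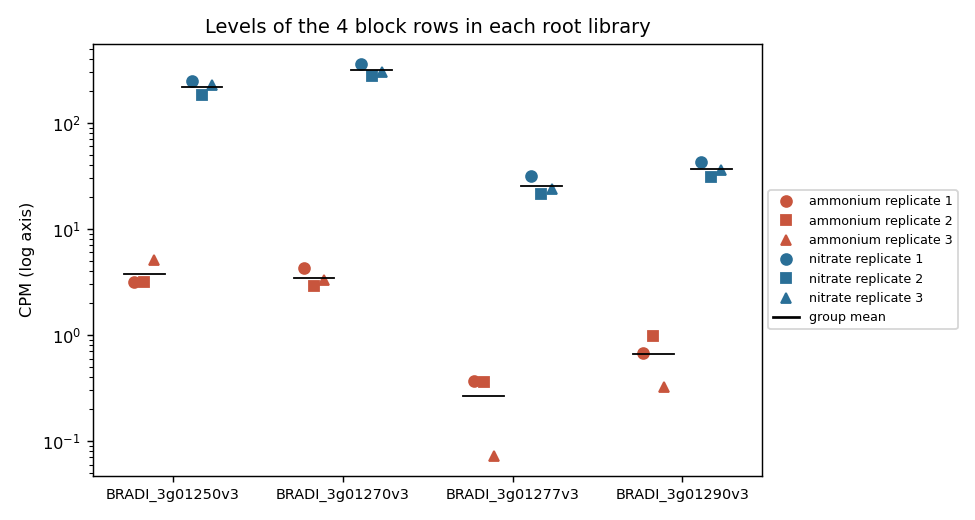
The CPM of each of the 4 rows is plotted on a log axis for the 3 ammonium libraries (red) and the 3 nitrate libraries (blue), with symbols for the replicates and a black line for the group mean. For BRADI_3g01270v3 the ammonium libraries sit between 2.87 and 4.25 CPM and the nitrate libraries between 280 and 362 CPM; no row has overlapping groups.

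Summed over the 4 rows, the block held 251, 205 and 243 counts in the ammonium libraries and 19576, 13368 and 13303 counts in the nitrate libraries. The sum was 8.20 ± 0.747 CPM in ammonium roots and 595 ± 84.9 CPM in nitrate roots (SD, n = 3 each), a 72.5-fold lower sum under ammonium. Among the log2 fold changes of all 23694 tested features, ordered from the most negative, the rows of the block took places 3 (BRADI_3g01277v3), 4 (BRADI_3g01270v3), 8 (BRADI_3g01250v3) and 9 (BRADI_3g01290v3). The median log2 fold change of the 4 rows was -6.17, beside 0.0037 over all tested features.

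The 4 fold changes were similar in size, and their order was stable only in part. With each library left out in turn, BRADI_3g01270v3 stayed more negative than BRADI_3g01250v3 and BRADI_3g01290v3. Its log2 fold change was -6.66 to -6.37, against -6.11 to -5.73 for BRADI_3g01250v3 and -6.16 to -5.48 for BRADI_3g01290v3. In some of these fits BRADI_3g01277v3 changed places with BRADI_3g01270v3, or BRADI_3g01290v3 with BRADI_3g01250v3. With all libraries the fold changes lay between -6.55 (BRADI_3g01277v3, SE 0.32) and -5.79 on the log2 scale. The ends of the order were thus apart by little more than the sum of their SEs. Without ammonium replicate 3, the log2 fold changes were -6.12 for BRADI_3g01277v3, -6.46 for BRADI_3g01270v3, -6.11 for BRADI_3g01250v3 and -5.48 for BRADI_3g01290v3. BRADI_3g01270v3 then stood first and BRADI_3g01277v3 beside BRADI_3g01250v3. The difference of BRADI_3g01250v3 from nitrate was larger without this library and that of the other 3 rows smaller. Without nitrate replicate 3 they were -6.60 for BRADI_3g01277v3, -6.53 for BRADI_3g01270v3, -5.83 for BRADI_3g01250v3 and -5.81 for BRADI_3g01290v3, in the same order as with all libraries.

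The make-up of the block varied less among nitrate roots than among ammonium roots, where its counts were far fewer. Counts were not divided by transcript length, since no length was matched to the identifiers, so shares of counts do not rank the rows by expression. In nitrate replicates 1 to 3, BRADI_3g01270v3 held 52.9%, 54.3% and 51.2% of the counts of the block, and BRADI_3g01250v3 36.2%, 35.6% and 38.6%. BRADI_3g01290v3 held 5.98% to 6.27% and BRADI_3g01277v3 4.05% to 4.62% in these libraries.

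In ammonium replicates 1 to 3, BRADI_3g01270v3 held 50.2%, 39.02% and 37.9% of the counts of the block. BRADI_3g01250v3 held 37.5% (exact binomial 95% interval 31.4% to 43.8%), 42.9% (36.1% to 50.01%) and 57.6% (51.1% to 63.9%). Ammonium replicate 3 was thus outside the counting interval of both other ammonium libraries for this row, and there BRADI_3g01250v3 had more counts than BRADI_3g01270v3. The same order was found in ammonium replicate 2, with 88 and 80 counts, which is within counting error. In ammonium replicate 1 and in all 3 nitrate libraries, BRADI_3g01270v3 had the more counts.

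**Figure D2:**
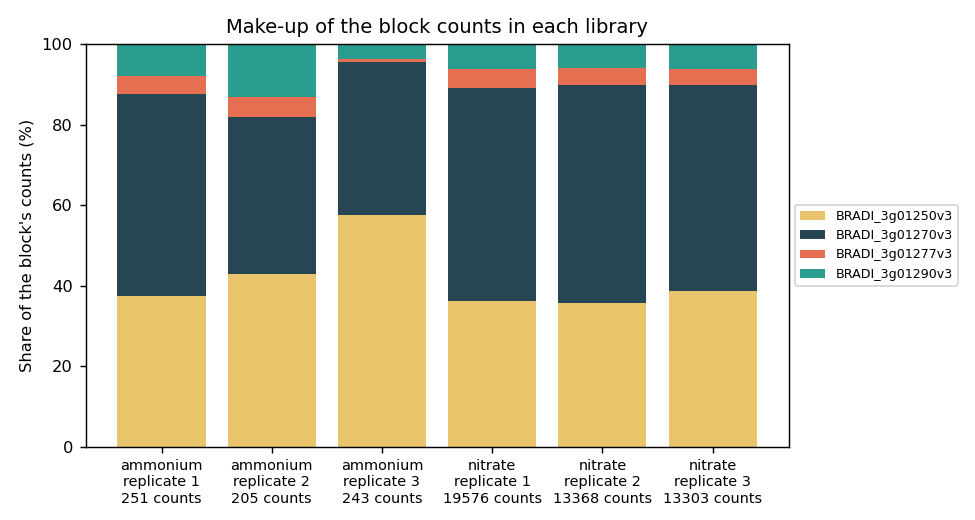
Stacked bars give the share of the counts of the block (percent) held by each of its 4 rows in the 3 ammonium and the 3 nitrate libraries, with the total counts of the block under each bar. BRADI_3g01250v3 takes 57.6% in ammonium replicate 3, against 35.6% to 38.6% in the nitrate libraries.

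Ratios between rows within a library do not depend on scaling. The counts of BRADI_3g01250v3 were 74.6%, 110.0% and 152% of those of BRADI_3g01270v3 in ammonium replicates 1 to 3, and 68.3%, 65.5% and 75.4% in nitrate replicates 1 to 3. The groups overlapped, since ammonium replicate 1 lay within the nitrate range. Of the 6 pairs of rows, 5 had count ratios that overlapped between ammonium and nitrate libraries.

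The exception was the pair with the fewest counts. BRADI_3g01277v3 had 55.0% (exact 95% interval 23.8% to 120%), 37.0% (16.0% to 79.0%) and 22.2% (2.34% to 107%) of the counts of BRADI_3g01290v3 in ammonium replicates 1 to 3. In nitrate replicates 1 to 3 it had 73.7%, 69.96% and 66.3%. Each ammonium interval takes in nitrate values, so a change in this ratio was not detectable at this depth in any single ammonium library. Summed over libraries, the counts of BRADI_3g01277v3 and BRADI_3g01290v3 were 23 and 56 under ammonium and 2002 and 2839 under nitrate. Whether the ratio changed over the ammonium libraries together was not tested.

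As a share of the BRADI_3g01270v3 counts, BRADI_3g01277v3 stood at 8.73%, 12.5% and 2.17% in ammonium replicates 1 to 3 and at 8.72%, 7.70% and 7.91% in nitrate replicates 1 to 3. The nitrate values lay close together and within the ammonium range. The rows are neighbours of 1 gene family, and the sources used here do not say how reads that align to several places, or to overlapping genes, were counted. How the counting divided reads between similar copies was not tested, and the values of single rows are uncertain to that extent.

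Within nitrate roots, the 4 rows moved together from library to library. Nitrate replicate 1 was the highest and nitrate replicate 2 the lowest for all 4 rows. Deviations from the group mean of log2 CPM ran from 0.19 to 0.32 in nitrate replicate 1 and from -0.25 to -0.16 in nitrate replicate 2. In nitrate replicate 3 they ran from -0.09 to 0.06. The coefficient of variation of the CPM was 13.7% to 20.7% over the 4 rows in nitrate roots. The rows share each library and its scaling factor, so these deviations are not independent of each other.

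No such common order was seen within ammonium roots. BRADI_3g01270v3 and BRADI_3g01277v3 were highest in ammonium replicate 1, BRADI_3g01290v3 in replicate 2 and BRADI_3g01250v3 in replicate 3. In ammonium replicate 3 the deviations were 0.44 for BRADI_3g01250v3, -0.05 for BRADI_3g01270v3, -0.76 for BRADI_3g01290v3 and -1.06 for BRADI_3g01277v3. The coefficient of variation was 20.2% for BRADI_3g01270v3 and 28.8% for BRADI_3g01250v3 under ammonium. It was 49.1% for BRADI_3g01290v3 and 63.2% for BRADI_3g01277v3, the rows with 9 to 27 and 2 to 11 counts per ammonium library.

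**Figure D3:**
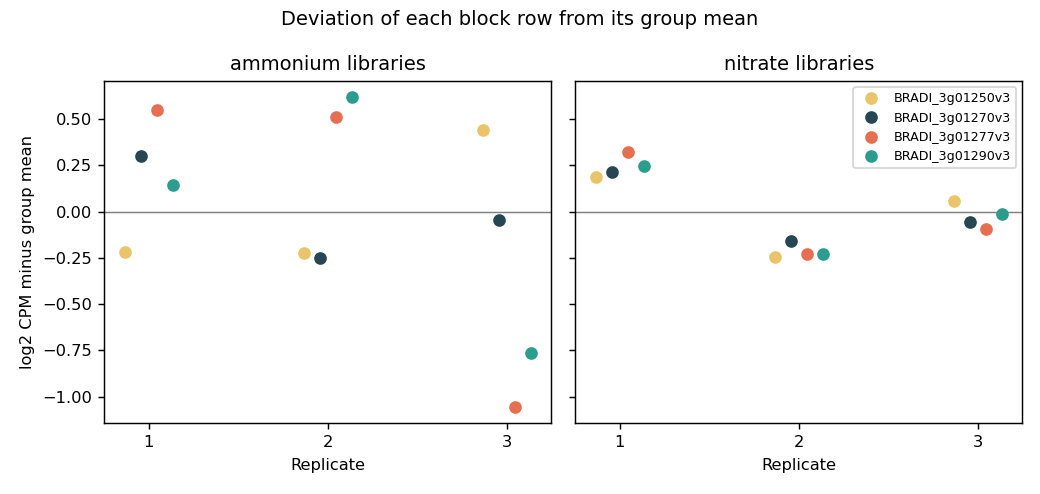
For each row, the log2 CPM of every library minus the mean of its group is plotted by replicate, ammonium libraries on the left and nitrate libraries on the right. In nitrate roots the 4 rows lie together in each library, within -0.25 and 0.32; in ammonium replicate 3 they spread from -1.06 to 0.44.

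The rows just outside the block are given next as a description, since the range was chosen for its contrast and a smaller difference outside it follows from that choice. The nearest row below the block, BRADI_3g01245v3, had 11, 5 and 8 counts in the ammonium libraries and 5, 7 and 7 in the nitrate libraries, and was too low to be tested. Above the block, BRADI_3g01297v3 followed directly, with 5862, 5248 and 5382 counts under ammonium and 4340, 3505 and 4150 counts under nitrate. Its log2 fold change was 0.31 (SE 0.11), opposite in sign to the block, and it did not pass the threshold (edgeR adjusted p = 0.054). With the replicate number as a block it passed (log2 fold change 0.32, edgeR adjusted p = 0.029), as it did without nitrate replicate 3 (log2 fold change 0.43, edgeR adjusted p = 0.0068). The outermost rows of the block, BRADI_3g01250v3 and BRADI_3g01290v3, are themselves the limits of the range.

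Flanking rows were taken by position, 15 on each side of the block. Of the 28 that could be tested, 7 fell, 1 rose and 20 did not pass the threshold, and their median log2 fold change was 0.07. With the replicate block, 8 fell and 4 rose. Over all tested features 22.2% fell, 19.2% rose and the median was 0.0037. The flanking log2 fold changes lay between -1.74 and 0.85. The largest fall was that of BRADI_3g01240v3, the nearest tested row below the block and lower in ammonium like it. It stood at 4, 3 and 5 counts in the ammonium libraries, against 12, 12 and 13 in the nitrate libraries (log2 fold change -1.74, SE 0.41, edgeR adjusted p = 0.0092). No ammonium library met the minimum of the filter for this row, so the nitrate libraries carried it through. With a filter of at least 1 CPM in 3 libraries the row was not tested. The rise was that of BRADI_3g01157v3, with 280, 335 and 358 counts under ammonium and 172, 166 and 151 under nitrate (log2 fold change 0.85, SE 0.14, edgeR adjusted p = 0.0016).

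**Figure D4:**
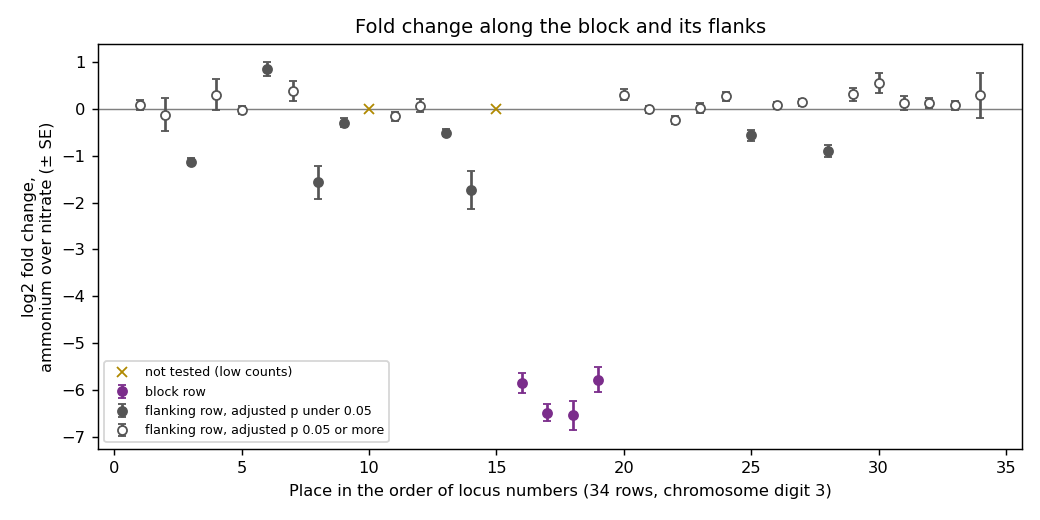
The log2 fold change (ammonium over nitrate, ± SE) is plotted for the 4 rows of the block (purple) and 30 flanking rows (grey) in the order of their locus numbers; filled grey points passed an adjusted p of 0.05, open ones did not, and crosses set at 0 mark the 2 rows too low to be tested. The block lies between -6.55 and -5.79, the flanks between -1.74 and 0.85.

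Outside the block, the features most like BRADI_3g01270v3 were sought over the 6 libraries. The measure was the root mean square difference of log2 CPM profiles, each centred on its own mean, among 17015 features with at least 5 CPM in the higher group. BRADI_3g01250v3 and BRADI_3g01277v3 took the first and second places, with differences of 0.43 and 0.53, and BRADI_3g01290v3 the fourth, with 0.59. The measure rests mainly on the difference between ammonium and nitrate for which the block was chosen, so these places follow from that choice. All rows placed here, also those outside the block, reached a group mean of 5 CPM only in nitrate roots, with ammonium means of 0.27 to 3.79 CPM. In the third place was BRADI_1g08357v3 (0.56), with 12, 5 and 24 counts in the ammonium libraries and 1351, 1290 and 728 in the nitrate libraries. Its log2 fold change was -6.47 (SE 0.35), and -7.17 without ammonium replicate 3, its highest ammonium library. In the fifth place was BRADI_1g17891v3 (0.71), with 10, 14 and 11 counts under ammonium and 805, 595 and 274 under nitrate, and a log2 fold change of -5.67 (SE 0.38). Both carry the chromosome digit 1, and the table gives no name for either. Unlike the block, both were lowest among nitrate libraries in replicate 3, at 32.0 and 12.0 CPM, against 47.2 and 49.7 CPM, and 28.1 and 22.9 CPM, in nitrate replicates 1 and 2. Without nitrate replicate 3 the log2 fold changes were -6.65 (BRADI_1g08357v3) and -5.95 (BRADI_1g17891v3). That of BRADI_1g17891v3 was -5.65 without ammonium replicate 3.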

How the data were processed

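Raw read counts per feature were deposited by the authors as 1 table. HISAT2 and HTSeq were used, per the submitters' processing notes; versions, genome build, annotation and counting options: not given in the sources used here. None of the 29627 identifiers (0) matched the 31335 genes of the RefSeq table (assembly Brachypodium_distachyon_v3.0), so names, lengths, coordinates, sequences, pathway lists and root markers were not used, and levels were not ranked between genes. The rows, flanks and lists were chosen with earlier results of these data known.

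Counts of all 6 libraries were fitted with edgeR 4.0.16 in R 4.3.3 (quasi-likelihood test, TMM scaling, filterByExpr with minimum count 10 and minimum total 15), with nitrogen form as the single covariate. Adjustment by the Benjamini-Hochberg method ran over 23694 tested features. The SE of a log2 fold change is its size over the root of F. Log2 CPM used a prior count of 2. Exact 95% intervals came from scipy 1.17.1 and cover counting error only. The fit was checked on simulated counts. Named outside the block were the 2 features most like BRADI_3g01270v3, and the called flanking row with the largest change in each direction; BRADI_3g01245v3 and BRADI_3g01297v3 are the rows next to the block.

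Libraries of a group differed by more than sampling noise (chi-square per degree of freedom at least 6.62), so none was counted as a duplicate. The labels do not say that pools came from separate tanks, so p-values reflect only how these pools vary, and that variation may be technical in part. Deviations of same-numbered libraries correlated at 0.11 to 0.21 across features in all 3 pairs, and those of differently numbered libraries at -0.13 to -0.02. The deviations were centred within each group, so the second range is not independent of the first. The pairing by replicate number is read from the data, not from the labels, and the main fit left it out. SEs and calls are those of the unpaired fit unless the replicate block is named. Alternatives were other scalings, filters and tools (DESeq2 1.42.0, limma 3.58.1), a replicate block, another prior count and leaving out each library.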

Additional observations from a re-analysis of the deposited data

How the results depend on the processing

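The block was chosen on this contrast, so the ranges of its 4 log2 fold changes describe their size and say nothing of the stability of the contrast itself. Leaving out 1 library at a time gave -6.11 to -5.73 for BRADI_3g01250v3, -6.66 to -6.37 for BRADI_3g01270v3, -6.86 to -6.12 for BRADI_3g01277v3 and -6.16 to -5.48 for BRADI_3g01290v3. The remaining alternatives gave -5.87 to -5.82, -6.50 to -6.46, -6.74 to -6.23 and -5.87 to -5.64 in the same order of rows. With the replicate number as a statistical block the values were -5.86 (BRADI_3g01250v3), -6.50 (BRADI_3g01270v3), -6.56 (BRADI_3g01277v3) and -5.79 (BRADI_3g01290v3). Of all tested features 9800 were called, 10526 with the replicate block and 7103 to 9898 when 1 library was left out. Of the flanking rows 8 were called, 12 with the replicate block (8 lower, 4 higher) and 7 to 10 in the other alternatives. BRADI_3g01297v3, next to the block of genes, passed the threshold in 6 of 15 alternatives (log2 fold change 0.21 to 0.43 over all of them); the cause was not tested. The replicate block changed the call of no other named flanking row. Depth limits the rows with few counts: 23 counts of BRADI_3g01277v3 and 56 of BRADI_3g01290v3 were found over all ammonium libraries, so their shares and order under ammonium are poorly bounded.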
